A study of Gallus gallus with 16 samples.

Results

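The genes described here encode nuclear-encoded subunits of the mitochondrial respiratory chain and of ATP synthase, together with cytochrome c. Membership went by gene symbol, in a set chosen with earlier results of these data known. A probe set qualified when the platform annotation gave it exactly 1 symbol, and that symbol began with NDUFA, NDUFB, NDUFC, NDUFS, NDUFV, UQCR, ATP5 or COX4 to COX8, or was SDHA, SDHB, SDHC, SDHD, CYC1 or CYCS, with the NDUFAF assembly factors left out. Each gene was represented by its probe set with the highest mean over all arrays. This gave 67 of the 13013 genes with such a probe set, drawn from 120 probe sets: 34 of complex I, 2 of complex II, 8 of complex III, 8 of complex IV, 14 of complex V (ATP synthase) and CYCS.

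The chickens came from a population selected divergently for residual feed intake, the feed eaten beyond what size and growth predict. Duodenum, the stretch of small intestine next to the stomach, was sampled from the low (LRFI) and the high (HRFI) line. RNA was hybridized to 16 one-colour Affymetrix arrays, 4 each for LRFI day 42, HRFI day 42, LRFI day 35 and HRFI day 35. Both lines descend from selection, so HRFI is the opposite line and not an unselected control, and no treatment is named for any group. Nothing in the labels ties an array to a bird, so the replicates may be technical, and the p-values measure no more than their spread.

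In the inner mitochondrial membrane, complexes I and II take electrons from NADH and succinate and pass them through ubiquinone to complex III. Cytochrome c carries them on to complex IV, which reduces oxygen. Complexes I, III and IV pump protons, and ATP synthase uses the returning protons to make ATP. Duodenal enterocytes spend much ATP on the sodium gradient that drives nutrient uptake. The roles given below for single subunits are those known from mammals.

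The values are log2 signals, on which a difference of 1 is a doubling. Enterocyte markers read high, which goes with intestinal epithelium but does not set the duodenum apart. Of these, 13 of 14 were measured. FABP1, a fatty acid binding protein, averaged 14.64, APOA1, an apolipoprotein, 14.55 and VIL1, a brush border protein, 12.18. Of 2 listed markers of duodenal position only 1 was measured, GATA4, with a mean of 6.10. The array medians lay between 5.05 and 5.10. On 5 arrays the actin control read over 1 higher at its 3′ end than at its 5′ end: LRFI day 35 replicates 3 and 4 (1.13 and 1.48), HRFI day 35 replicates 2 and 3 (1.83 and 2.07) and HRFI day 42 replicate 4 (1.20), against 0.187 to 0.501 on the other 11. The same gap of the GAPDH control was not raised on these 5 arrays (0.054 to 0.264); all LRFI day 42 arrays had 0.357 to 0.401, and the other 12 arrays 0.054 to 0.313. Pancreatic enzymes were high on LRFI day 42 replicate 2 and HRFI day 35 replicate 3, with a mean over 8 measured markers of 11.74 and 13.95, against 4.86 to 6.04 elsewhere.

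The subunit genes were among the brighter features of the arrays. The 67 means over 16 arrays had a median of 12.01, and 64 lay above 5.07, the median of all probe sets; 55 were over 10. The 3 exceptions were COX7B at 3.80, ATP5G2 at 4.76 and ATP5J at 4.78. Within complexes the probe sets with the highest and lowest means were those of NDUFB8 (12.86) and NDUFS5 (5.36) in complex I, SDHD (12.67) and SDHA (11.98) in complex II, UQCRHL (13.31) and UQCRB (9.07) in complex III, COX4I1 (13.75) and COX7B in complex IV, and ATP5G3 (13.58) and ATP5G2 in complex V. Probes differ in how strongly they bind, so these means describe the probe sets and do not order the transcripts. The 3 genes for the membrane-embedded c subunit of ATP synthase, ATP5G1, ATP5G2 and ATP5G3, include the low ATP5G2 probe set, whose readings of 4.45 to 5.04 were below the array median on all arrays.

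Members varied little. The median standard deviation (SD) within groups was 0.127 for the 55 members with a mean over 10, against 0.174 for all 1563 genes with such a mean. The steadiest member was ATP5I, the e subunit of ATP synthase, with an SD of 0.04. The most variable was NDUFS1, the large iron-sulfur subunit of complex I, with an SD of 0.62. Its probe set read 11.14, 10.05, 11.89 and 11.16 in LRFI at day 42, and 9.88, 10.32, 11.67 and 11.62 in LRFI at day 35, while a second probe set of NDUFS1 stayed between 10.44 and 11.11 on all 16 arrays. NDUFS1 was singled out after its values were seen.

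At day 42 most subunit genes read slightly lower in LRFI than in HRFI. The difference was below 0 for 57 of 67 members, with a median of −0.12, or 0.923-fold. No member passed the limma test at a Benjamini-Hochberg adjusted p under 0.05, where 0.0026% of all 38439 probe sets did. At an unadjusted p under 0.05 there were 5 lower and 0 higher members, against 3.26% and 2.3% of all probe sets. The median over all probe sets was −0.01 with 52.8% below 0, and among the 1563 genes with a mean over 10 it was −0.04 with 61.9% below 0.

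The mean over the 67 members was 11.27, 11.24, 11.21 and 11.11 on the LRFI day 42 arrays, against 11.30, 11.28, 11.33 and 11.32 on the HRFI day 42 arrays. These 2 sets of arrays did not overlap in this mean over all members. Replicate 4 of LRFI at day 42 lay lowest and held the lowest of all 16 readings for 26 of the 67 members; without it the median difference was −0.07 with 53 members below 0. The 13 enterocyte markers overlapped between the groups, with summed levels of 163.7 to 165.9 in LRFI and 164.6 to 165.2 in HRFI. The 4 measured B and plasma cell markers, of 6 listed, all read lower in LRFI (median −0.14), with summed levels of 31.7 to 33.6, against 32.4 to 33.7 in HRFI. Goblet cell markers were lower for 3 of 5 (−0.25), enteroendocrine for 4 of 5 (−0.07) and macrophage and granulocyte for 4 of 6 (−0.04). T and NK cell markers were higher for 4 of 6 (0.13) and pancreatic markers for all 8 (1.86). Proliferation markers were split, 3 higher and 3 lower. The GAPDH gap of 0.357 to 0.401 on every LRFI day 42 array, against 0.108 to 0.163 in HRFI, ran along with the line, and neither its part nor that of the markers in the result was tested. Without the 2 arrays high in pancreatic enzymes the median was −0.12, with 56 members below 0. In whole tissue, fewer cells of a type and less RNA per cell cannot be told apart.

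**Figure D1:**
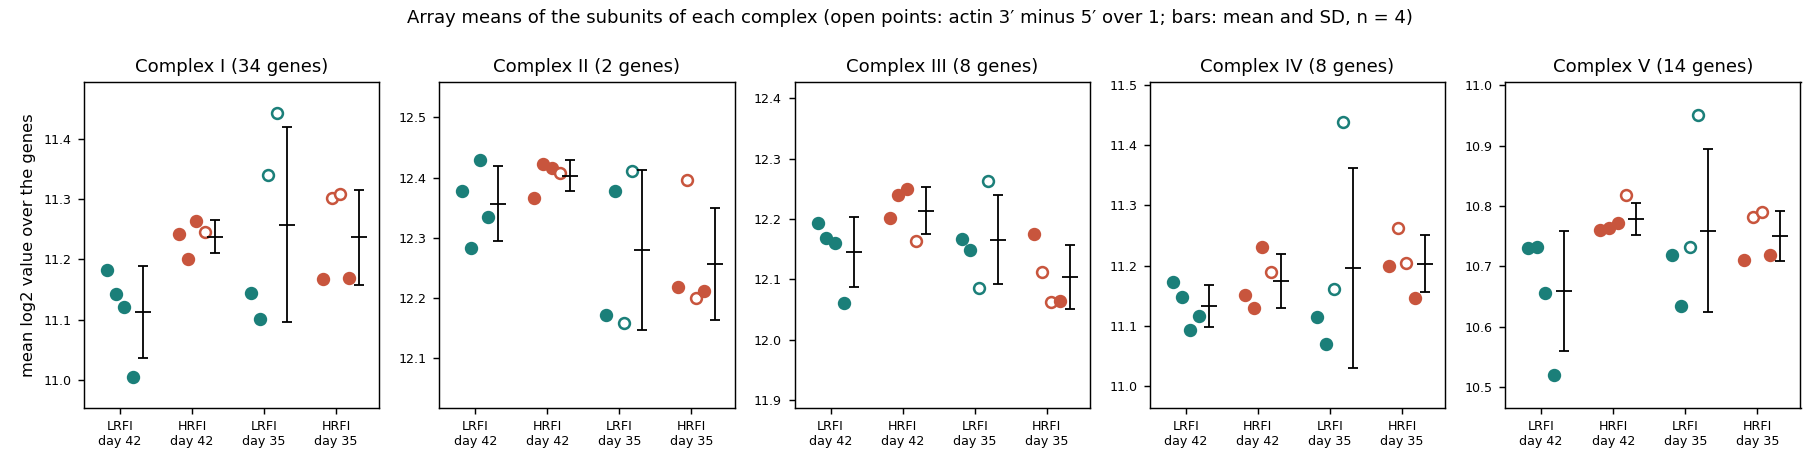
Mean log2 value of the subunit genes of each complex on every array (vertical axis; every panel spans the same number of log2 units), by group (horizontal axis). Points are arrays, open where the actin 3′ minus 5′ difference was over 1, and bars give the mean and SD of 4 arrays. In complex I the LRFI day 42 arrays lie between 11.004 and 11.18 and the HRFI day 42 arrays between 11.20 and 11.26. In complexes II, III and IV the day 42 arrays of the lines overlap.

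By complex, the counts below 0 at day 42 were 31 of 34 in complex I (median −0.12), 2 of 2 in complex II (−0.05), 5 of 8 in complex III (−0.10), 6 of 8 in complex IV (−0.08) and 12 of 14 in complex V (−0.09). In complex I this held for 5 of the 6 measured core subunits, most of which carry electron-transfer centres, and for 26 of the 28 accessory subunits. In complex V it held for all 10 members outside the catalytic F1 sector, ATP5S among them. Within that sector it held for 2 of the 4 members, which were ATP5B, ATP5C1, ATP5E and ATP5F1AZ. The lines' day 42 array means were apart in complex I and complex V. They overlapped in complex II (12.28 to 12.43 in LRFI, against 12.37 to 12.42 in HRFI). Overlap was also seen in complex III (12.06 to 12.19, against 12.16 to 12.25) and complex IV (11.09 to 11.17, against 11.13 to 11.23). The complex I core subunits (10.46 to 10.81, against 10.63 to 10.82) and the F1 sector (11.26 to 11.32, against 11.31 to 11.37) overlapped too.

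**Figure D2:**
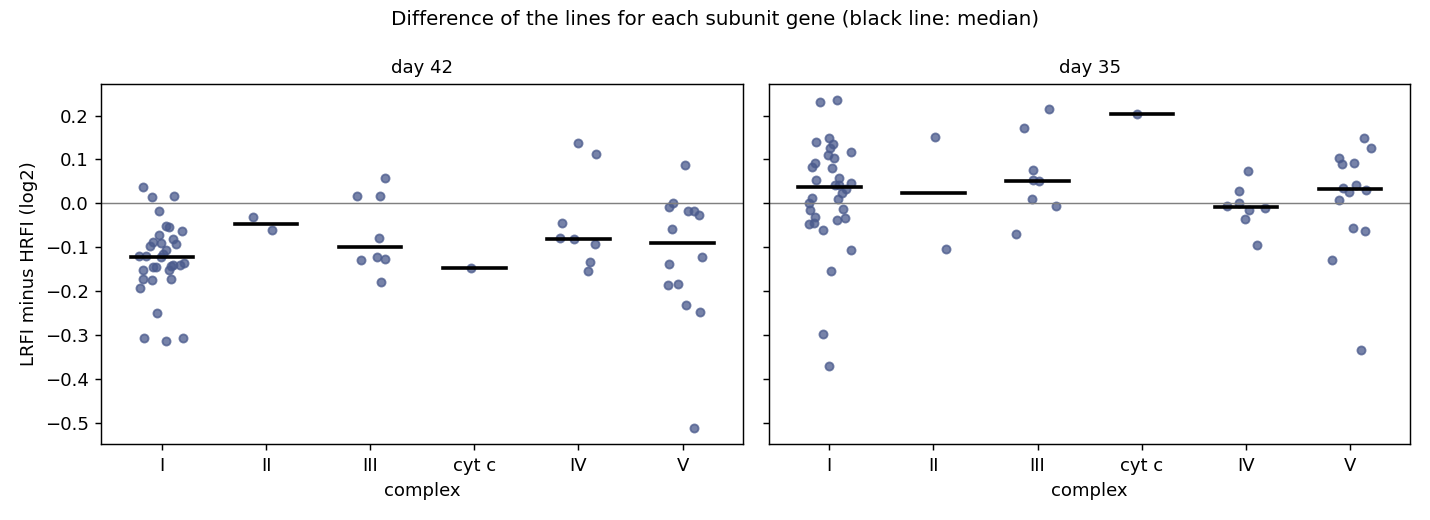
LRFI minus HRFI difference of each subunit gene (log2, vertical axis) by complex (horizontal axis), at day 42 on the left and day 35 on the right. Each point is a gene and each black line a median. At day 42 most points lie below 0, and at day 35 the medians of complexes I to V lie between −0.01 and 0.05.

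In complex I the smallest p at day 42 belonged to NDUFA12, an accessory subunit. It read 11.91, 12.07, 11.79 and 11.66 in LRFI, against 12.14, 12.25, 12.08 and 12.23 in HRFI. The 2 groups were apart, though the highest LRFI reading (12.07) nearly met the lowest HRFI reading (12.08). The difference was −0.31 (SE 0.096, limma adjusted p = 0.796). NDUFB2, an accessory subunit of the membrane arm, read 11.99, 11.93, 12.01 and 11.73 in LRFI, against 12.22, 12.17, 12.36 and 12.14 in HRFI. Its groups were also apart, with a difference of −0.31 (SE 0.13, adjusted p = 0.888 in limma). NDUFB5, another membrane arm subunit, differed by −0.17 with overlapping groups.

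In ATP synthase, ATP5C1, the gamma subunit of the rotating shaft, read 12.22, 12.28, 12.16 and 12.13 in LRFI at day 42, against 12.38, 12.47, 12.39 and 12.54 in HRFI. The groups were apart, and the difference was −0.25 (SE 0.084, limma adjusted p = 0.816). ATP5H, the d subunit of the stator stalk, read 12.96, 12.93, 12.95 and 12.87 in LRFI, against 13.08, 13.19, 13.05 and 13.14 in HRFI. Here too no LRFI array reached an HRFI array, at a difference of −0.19 (SE 0.068, limma adjusted p = 0.852). ATP5G1, a c subunit gene, differed by −0.18 (limma adjusted p = 0.888), again with groups apart. Its highest LRFI reading (13.187) nearly met its lowest HRFI reading (13.193).

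In all, 9 members (13.4%) had every LRFI reading below every HRFI reading at day 42 and 0 had the reverse, where the shares over all probe sets were 2.69% and 1.74%. Besides the 5 just named as apart, these were NDUFB6, ATP5PB, the b subunit of the stator stalk, COX4I1, a nuclear-encoded subunit of complex IV, and ATP5J, another stalk subunit. NDUFB6 and ATP5J were listed here after their values were seen. In NDUFB6 the highest LRFI reading (11.537) all but met the lowest HRFI reading (11.538). ATP5J had the difference of greatest size among the members, −0.51, from a probe set below the array median. COX4I1 differed by −0.13 (limma adjusted p = 0.915). In complex III the smallest p was that of UQCRQ, a small subunit, at −0.13, and in complex II that of SDHD, a membrane anchor, at −0.06.

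**Figure D3:**
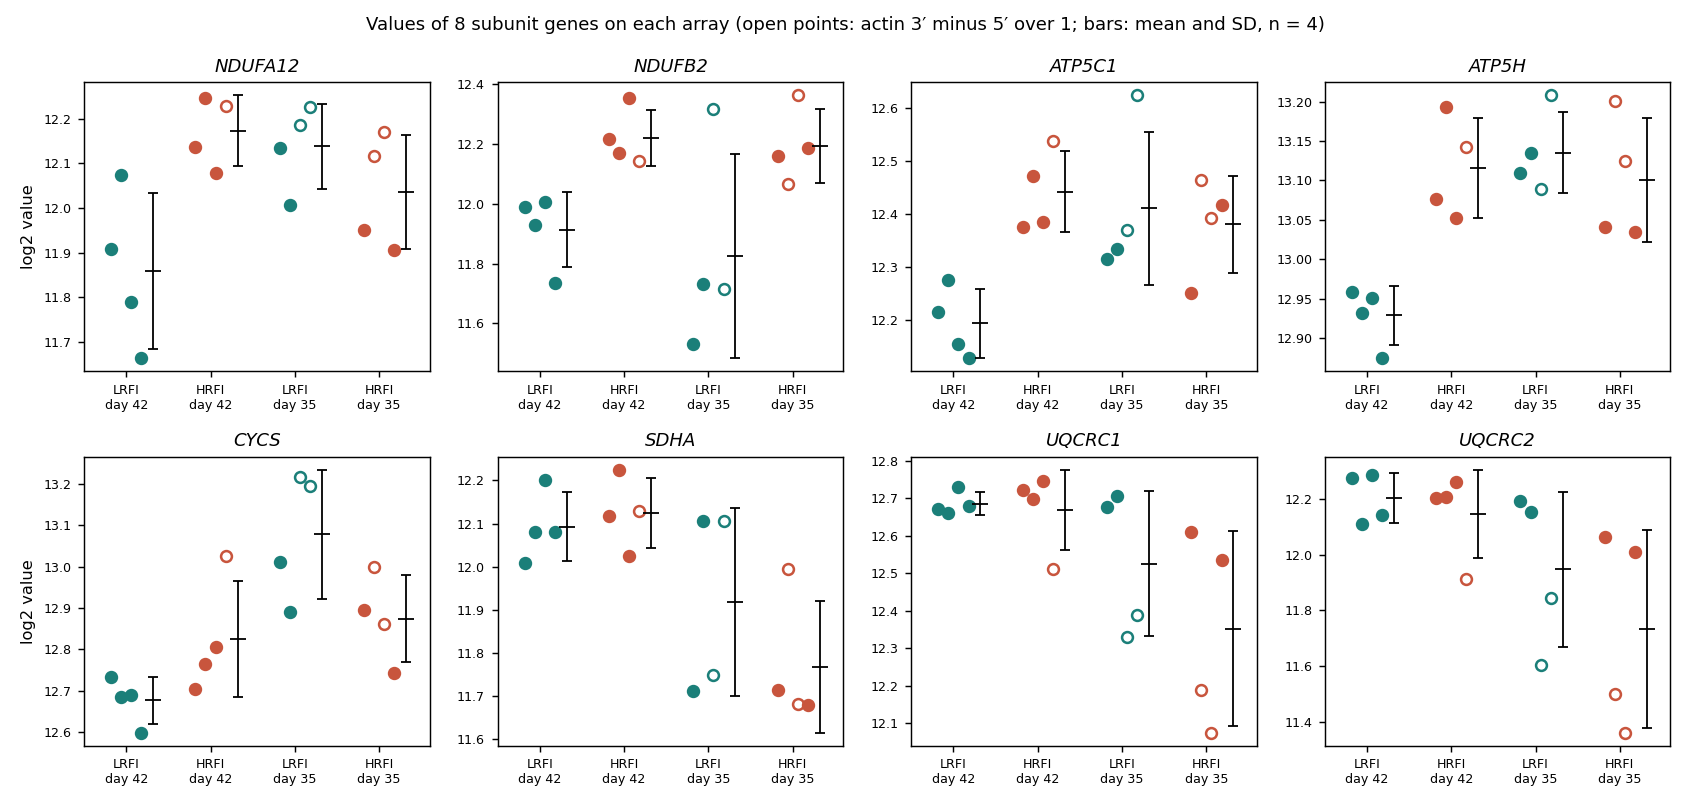
Log2 values (vertical axes, each on its own scale) of 8 subunit genes on each array by group (horizontal axes). Open points mark arrays with an actin 3′ minus 5′ difference over 1, and bars give the mean and SD of 4 arrays. NDUFA12, ATP5C1 and ATP5H show LRFI day 42 below HRFI day 42 with no overlap, and the open points of UQCRC1 and UQCRC2 lie below all filled ones.

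At day 35 the lines differed little in these genes. The difference was above 0 for 43 of 67 members with a median of 0.03, near the 62.7% and the median of 0.05 of all genes with a mean over 10, and no member passed, as no probe set of the 38439 did (0.0%). The unadjusted test gave 1 higher and 2 lower members, against 2.84% and 3.82% of all probe sets, and 1 member in each direction had groups apart (0.994% and 1.88% of all). The sign of the median rested on single arrays. LRFI replicate 4 held the highest of all 16 readings for 43 members, and without it the median was −0.04, with 41 members below 0. Without HRFI replicate 1 it was −0.0045, and without LRFI replicate 2 it was 0.07. LRFI replicate 4 is among the arrays with an actin gap, and its member mean was 11.49, against 11.19 to 11.33 on the other LRFI day 35 arrays and 11.23 to 11.34 in HRFI.

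NDUFB2 read 11.53, 11.73, 12.32 and 11.72 in LRFI at day 35, against 12.16, 12.07, 12.36 and 12.19 in HRFI. LRFI replicate 3 lay within the HRFI range and the other 3 below it. The difference was −0.37 (SE 0.13, limma adjusted p = 0.680), and averaged over both ages −0.34 (SE 0.095, limma adjusted p = 0.777), where again no probe set passed (0.0%). With the mean of all NDUFB2 probe sets the difference was −0.15 at day 35 and −0.09 at day 42. The other NDUFB2 probe set had a mean of 4.62, below the median of all probe sets, against 12.04 for the member's own.

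Of the other members named for a small p at day 35, CYCS, cytochrome c itself, differed by 0.20 (limma adjusted p = 0.749) and ATP5E, the epsilon subunit of F1, by −0.33 (limma adjusted p = 0.713). UQCRC1 differed by 0.17, and by 0.080 to 0.26 with single arrays left out. SDHA differed by 0.15, with a like range of 0.088 to 0.23. SDHD, the other complex II gene, went the other way at −0.10 and was the 1 member apart downward. Its highest LRFI reading (12.7153) all but met its lowest HRFI reading (12.7185). COX7A2L, a factor of supercomplexes that meets the symbol rule, differed by 0.07, and by 0.003 without HRFI day 35 replicate 4. NDUFA9 differed by 0.14, and ATP5F1AZ, a Z-chromosome copy of the F1 alpha subunit, by 0.15. ATP5I was the only member with LRFI readings all above those of HRFI, at 13.58, 13.59, 13.58 and 13.63, against 13.49, 13.55, 13.47 and 13.46, a difference of 0.10 with an adjusted p of 0.820 in limma. Averaged over both ages, 49 of 67 members read lower in LRFI, with a median of −0.04, where 48.8% of genes with a mean over 10 were lower; at an unadjusted p under 0.05 there were 0 higher and 1 lower, against 2.19% and 3.29% of all probe sets. This median lay between −0.07 without LRFI day 35 replicate 4 and −0.02 without LRFI day 35 replicate 2.

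The line difference itself was set against age in the interaction, the LRFI minus HRFI difference at day 42 less that at day 35. It was below 0 for 56 of 67 members with a median of −0.12, and 0 members passed the limma test (0.0% of all probe sets). The unadjusted p was under 0.05 for 7 members below 0 and 0 above, against 3.17% and 3.18% of all probe sets. Over all probe sets the median was 0.00, and over genes with a mean over 10 it was −0.09, with 66.7% below 0. All 8 complex III members were negative (median −0.14), as were 28 of 34 in complex I (−0.13), 6 of 8 in complex IV (−0.05) and 12 of 14 in complex V (−0.12), while complex II had 1 of 2 (−0.07). The complex IV median was 0.02 without LRFI day 35 replicate 4 and 0.03 without the 5 arrays with the actin gap. It was also 0.03 when all probe sets of its genes were averaged. The other probe sets that enter there, of COX5A, COX6A1, COX6C and COX7C, had means of 5.55, 5.73, 6.89 and 6.53. The interaction was −0.42 for NDUFA12 (SE 0.14, limma adjusted p = 0.714), −0.35 for CYCS (SE 0.13, limma adjusted p = 0.731) and −0.28 for ATP5C1. It was −0.20 for UQCRFS1, the Rieske iron-sulfur protein of complex III, −0.23 for ATP5PB and −0.32 for NDUFS6, a complex I subunit. With all probe sets of a gene averaged, UQCRFS1 was at −0.03, ATP5C1 at −0.13 and NDUFS6 at −0.16. The other probe sets that enter there had means of 6.02 for UQCRFS1, 6.65 for ATP5C1 and 3.68 to 11.83 for NDUFS6. The members' own probe sets had means of 12.05, 12.36 and 12.30. Cell markers moved with the interaction too: all 6 measured proliferation markers were negative (median −0.46), as were all 4 measured B and plasma cell markers (−0.23), while 5 of 6 T and NK cell markers were positive (0.42). Enterocyte markers were negative for 11 of 13 (−0.04), and macrophage and granulocyte markers for 5 of 6 (−0.08). All 8 pancreatic markers were positive (3.35), and LRFI day 42 replicate 2 and HRFI day 35 replicate 3 were the arrays high in them. The proliferation markers had means of 9.63 and 9.51 on LRFI day 35 replicates 3 and 4, against 8.74 and 8.87 on replicates 1 and 2. Goblet cell markers were negative for 3 of 5 (−0.38), and HBAD, a hemoglobin gene, was at −1.64. Smooth muscle markers were positive for 4 of 5 (0.06), and enteroendocrine markers for 3 of 5 (0.17). The GAPDH gap was 0.357 to 0.401 on the LRFI day 42 arrays, against 0.054 to 0.313 on all others. Neither the part of the markers nor that of the GAPDH gap was tested.

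In LRFI, day 42 lay below day 35 for most members. The difference was negative for 57 of 67, with a median of −0.13, and 0 members passed the limma test, as did 0.0% of all probe sets. At an unadjusted p under 0.05, 14 members were lower (20.9%) and 0 higher, against 5.39% and 4.45% of all probe sets. There were 9 members with groups apart, all lower, against 2.83% of all probe sets apart downward and 2.15% upward. The median was −0.16 in complex I (31 of 34 below 0), −0.07 in complex III (6 of 8), −0.08 in complex IV (7 of 8) and −0.14 in complex V (11 of 14); in complex II it was 0.08 (1 of 2). Without LRFI day 35 replicate 4 the complex III median was 0.0006 and that of complex IV −0.03. Under the alternatives other than leaving out single arrays, the complex IV median kept its sign in 8 of 10. It reached 0.03 at most. The median over all probe sets was −0.0042, and over genes with a mean over 10 it was −0.02.

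This age difference moved with the actin gap. Of the 4 LRFI day 35 arrays 2 had it and of the LRFI day 42 arrays none did. Without the 5 arrays with the gap, which left 2 LRFI arrays at day 35, the median was −0.03, with 41 members below 0. Without LRFI day 35 replicate 4 alone it was −0.07, with 48 below 0. With actin as a covariate on all arrays, single members moved less. CYCS was then at −0.34 (−0.40 in the main fit) and NDUFB5 at −0.23 (−0.28). COX6C was at −0.10 (−0.13) and SDHA at 0.20 (0.17). Proliferation markers were also highest on those LRFI day 35 arrays: 6 of 7 were measured, their mean was 9.63 and 9.51 on replicates 3 and 4, and their summed levels spanned 52.5 to 55.0 in LRFI at day 42 and 52.5 to 57.8 at day 35. The difference was also negative for 5 of 6 macrophage and granulocyte markers (median −0.29; summed levels 47.8 to 49.7 at day 42, against 48.1 to 53.4 at day 35) and for all 4 measured B and plasma cell markers (−0.18; 31.7 to 33.6, against 32.5 to 34.5). HBAD, a hemoglobin gene and the 1 of 6 erythrocyte markers measured, differed by −2.45. Other markers did not fall: T and NK cell markers were higher at day 42 for 4 of 6 (median 0.18) and pancreatic markers for all 8 (1.30). Enterocyte markers were split, 6 higher and 7 lower (−0.01). The part of these markers in the result was not tested. The GAPDH gap also separated the ages in LRFI, at 0.357 to 0.401 at day 42, against 0.054 to 0.264 at day 35. Leaving out the 5 arrays with the actin gap kept this separation, with 0.173 and 0.155 left at day 35. Its part was not tested either.

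CYCS had the smallest p. It read 12.73, 12.69, 12.69 and 12.60 in LRFI at day 42, against 13.01, 12.89, 13.22 and 13.20 at day 35, so the ages were apart. The difference was −0.40 (SE 0.094, limma adjusted p = 0.233), and −0.27 without the 5 arrays. A second CYCS probe set read 10.72, 10.54, 10.34 and 10.31 at day 42 and 10.92, 10.36, 10.88 and 11.04 at day 35, with overlap.

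NDUFB5 differed by −0.28 (limma adjusted p = 0.324), NDUFB6 by −0.27 (0.355), NDUFA12 by −0.28 (0.382) and NDUFA1, an accessory subunit, by −0.24 (0.394). Outside complex I, ATP5H differed by −0.21 (0.366 in limma), UQCRQ by −0.22 (0.394) and COX6C, a small subunit of complex IV, by −0.13. SDHA, the catalytic flavoprotein of complex II that oxidizes succinate, lay on the other side at 0.17. Its readings were 12.01, 12.08, 12.20 and 12.08 at day 42, against 11.71, 12.11, 11.75 and 12.11 at day 35, which overlapped.

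**Figure D4:**
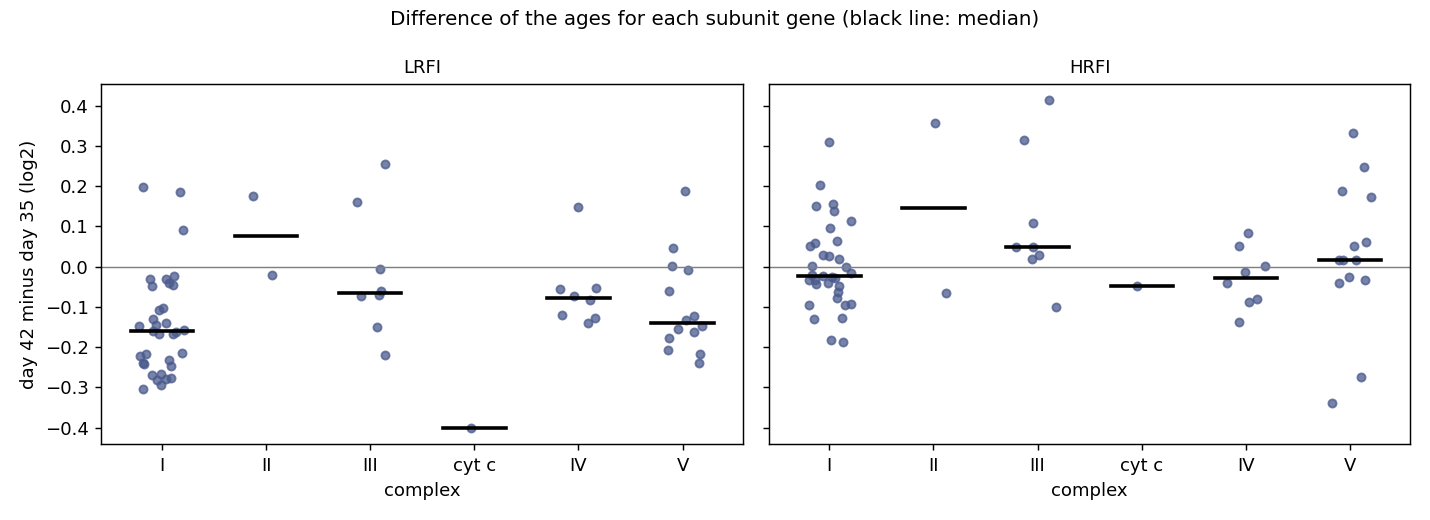
Day 42 minus day 35 difference of each subunit gene (log2, vertical axis) by complex (horizontal axis), in LRFI on the left and HRFI on the right. Each point is a gene and each black line a median. In LRFI most complex I points lie below 0, with a median of −0.16, while in HRFI the complex I median is −0.02 and the complex III median 0.05.

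In HRFI the members were split evenly between the ages on all arrays. The day 42 minus day 35 difference was above 0 for 34 and below 0 for 33, with a median of 0.0005, and 0 members passed the limma test (0.0% of all probe sets). Over all probe sets the median was −0.01, with 46.7% above 0. Among all genes with a mean over 10 it was 0.05, with 62.7% above 0. The 55 members with such a mean lay lower, at a median of −0.0021 with 49.1% above 0. At an unadjusted p under 0.05 there were 4 higher and 0 lower members, against 4.12% and 4.17% of all probe sets. Leaving out single arrays put the median between −0.04 (without HRFI day 35 replicate 1) and 0.02 (without replicate 3). Without the 5 arrays with the actin gap, which left 3 HRFI arrays at day 42 and 2 at day 35, the median was 0.08, with 47 members above 0, and that of complex I was 0.08, against −0.02 on all arrays. The 4 higher members were SDHA, ATP5F1AZ, UQCRC1 and UQCRC2. SDHA read 12.12, 12.22, 12.02 and 12.13 at day 42, against 11.71, 11.996, 11.68 and 11.68 at day 35. The ages were apart, at a difference of 0.36 (SE 0.11, limma adjusted p = 0.386), and 2 members in all were apart upward and 1 downward (2.12% and 2.46% of all probe sets). Without the 5 arrays with the actin gap the SDHA difference was 0.43. ATP5F1AZ differed by 0.25 (limma adjusted p = 0.482). Between the HRFI ages, enterocyte markers were above 0 for 8 of 13 (median 0.12). Their summed levels were apart, at 164.6 to 165.2 at day 42, against 162.4 to 163.8 at day 35. Proliferation markers were above 0 for 5 of 6 (0.23) and B and plasma cell markers for 3 of 4 (0.13). T and NK cell markers were below 0 for 4 of 6 (−0.15), and pancreatic markers for all 8 (−2.26). The part of these markers was not tested.

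UQCRC1 and UQCRC2 are the core proteins of complex III, large subunits on its matrix side. UQCRC2 read 12.20, 12.21, 12.26 and 11.91 in HRFI at day 42, against 12.06, 11.50, 11.36 and 12.01 at day 35. The low readings at both ages were those of the arrays with the actin gap. The difference was 0.41 (SE 0.16, limma adjusted p = 0.505), and 0.19 without the 5 arrays. UQCRC1 differed by 0.32 (SE 0.12, limma adjusted p = 0.493), and by 0.15 without them.

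Others named for HRFI were ATP5B, the catalytic beta subunit of F1, at 0.17 and NDUFA9 at 0.15 (0.007 with all its probe sets averaged). The other NDUFA9 probe set had a mean of 7.24, against 11.69 for the member's own. Also named were ATP5E at −0.28, ATP5S, a coupling factor that is no structural subunit, at −0.34 and COX7C at −0.09. Averaged over both lines, 48 of 67 members lay lower at day 42 with a median of −0.07, where 46.3% of genes with a mean over 10 lay lower, and 0 passed limma's test where 0.0026% of probe sets did. At an unadjusted p under 0.05 there were 4 higher and 8 lower members, against 6.18% and 5.61% of all probe sets. The smallest p-values of that average were those of SDHA at 0.27 (limma adjusted p = 0.204) and CYCS at −0.23 (limma adjusted p = 0.221). Without the 5 arrays the median was 0.03, with 43 members higher, and without LRFI day 35 replicate 4 alone it was −0.04. NDUFA4, counted in complex I by its symbol although it is known as a complex IV subunit in mammals, averaged −0.23 (limma adjusted p = 0.303).

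The actin gap went with the subunit genes in a set pattern, given as a description with no test. On the 5 arrays with the gap 58 of 67 members read higher than on the other 11, with a median difference of 0.16. Of all 38439 probe sets 23133 read higher, with a median of 0.04. The 5 arrays were from day 35 but for HRFI day 42 replicate 4, and all LRFI day 42 arrays were among the 11. Line and age are therefore mixed into this difference. The higher members were 31 of 34 in complex I (median 0.21), 1 of 2 in complex II and 6 of 8 in complex III. Also higher were 7 of 8 in complex IV, 12 of 14 in complex V and CYCS (by 0.28). The remaining members read lower, 3 of them with no overlap: NDUFV1, which binds NADH in complex I, at 10.66 ± 0.15 (SD, n = 5) against 11.27 ± 0.11 (SD, n = 11), UQCRC2 at 11.64 ± 0.23 against 12.17 ± 0.09, and UQCRC1 at 12.30 ± 0.17 against 12.68 ± 0.06. Over all probe sets 1.65% lay apart downward and 0.333% upward. The 5 members apart upward were ATP5PB, NDUFB5, NDUFA2, NDUFA8 and NDUFV2, by 0.14 to 0.29. NDUFV1, NDUFA2, NDUFA8 and NDUFV2 were named after their values were seen.

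Second probe sets of both core proteins moved further than the first. That of UQCRC2 read 8.82, 8.63, 7.69, 7.40 and 9.03 on the 5 arrays and 9.61 to 10.13 on the other 11. That of UQCRC1 read 10.71, 10.43, 9.99, 9.71 and 10.65, against 10.93 to 11.57. The age difference of UQCRC1 in HRFI was 0.45 with the mean of all its probe sets, and that of UQCRC2 was 0.49. Of the arrays compared between the lines at day 42, HRFI replicate 4 alone had the gap; without it the median difference was −0.10, with 57 members below 0.

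**Figure D5:**
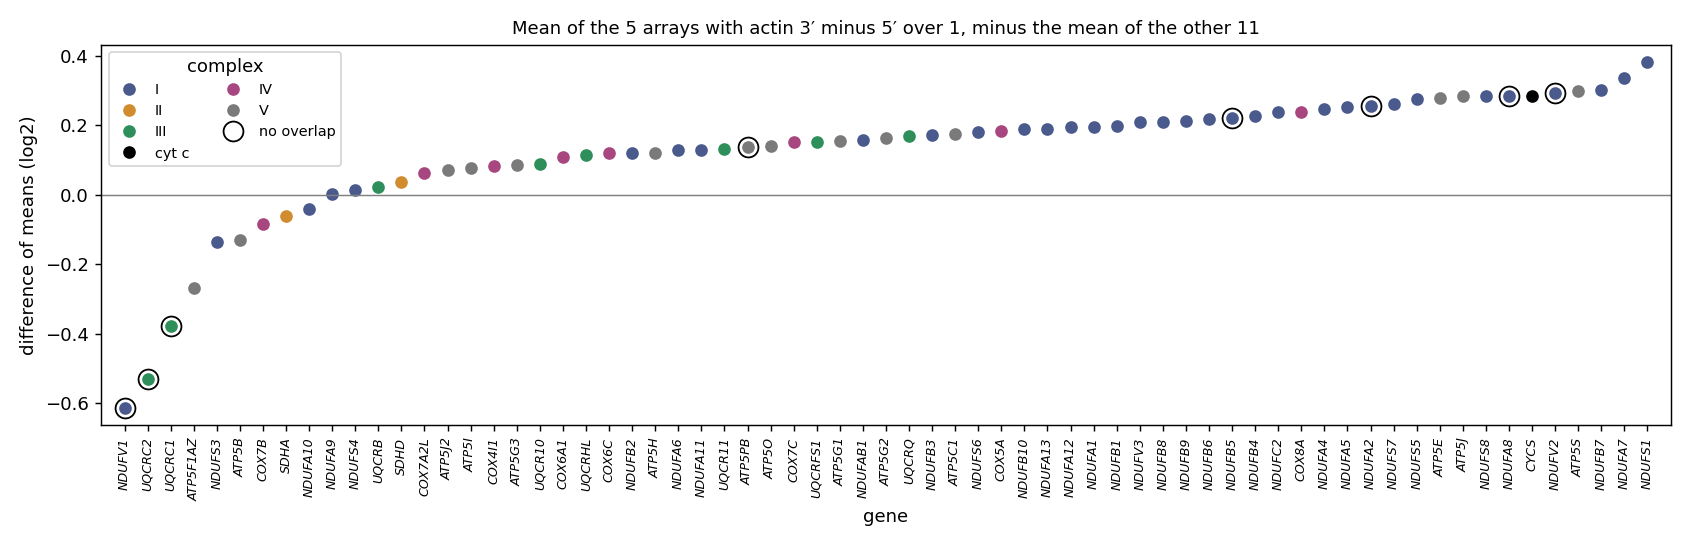
Mean of the 5 arrays with an actin 3′ minus 5′ difference over 1, minus the mean of the other 11 (log2, vertical axis), for each of the 67 subunit genes (horizontal axis, sorted), coloured by complex. Black rings mark genes whose readings do not overlap between both sets of arrays. NDUFV1, UQCRC2 and UQCRC1 lie lowest, at −0.61, −0.53 and −0.38.

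Among second probe sets with a mean over 9, of which there were 11 for 10 members, the sign was that of the member's own probe set in 8 for the lines at day 42, 10 for the lines at day 35, 10 for age in LRFI and 9 for age in HRFI.

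Genes around the chain were followed in 4 further lists, and 0 of their genes passed in any of the 7 limma comparisons. Of 52 assembly factors, 41 were measured, and at day 42 the line difference was above 0 for 16 and below 0 for 25 (median −0.05). SDHAF2, which helps insert flavin into SDHA, read 10.31 ± 0.13 in LRFI, against 10.73 ± 0.03 in HRFI (SD, n = 4 each), a difference of −0.43 with an adjusted p of 0.806 in limma. COA3, a complex IV assembly factor, differed by −0.43. In HRFI, COX10 and COX15, which make heme A for complex IV, differed between the ages by 0.29 and 0.25.

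Of 27 listed regulators and enzymes of mitochondrial biogenesis, 16 were measured, with 4 above and 12 below 0 between the lines at day 42 (median −0.02). SSBP1, a mitochondrial DNA binding protein, differed by 0.30 and ESRRB by −0.17. Between the ages in HRFI, 10 were above and 6 below 0. There TFB2M, a factor of mitochondrial transcription, read 9.18 ± 0.18 at day 42, against 8.58 ± 0.39 at day 35 (SD, n = 4 each), a difference of 0.60 with an adjusted p of 0.369 in limma. PPARGC1A, a coactivator of mitochondrial biogenesis, differed by −0.55.

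Of 22 genes of other electron donors to ubiquinone and of ubiquinone synthesis, 18 were measured, 8 above and 10 below 0 between the lines at day 42. COQ7, a ubiquinone synthesis enzyme, differed by −0.29 and DHODH, a pyrimidine synthesis enzyme, by 0.20. Between the ages in HRFI, 13 were above and 5 below 0 (median 0.18), with COQ5, another ubiquinone synthesis enzyme, at 0.39 and ETFA, an electron transfer flavoprotein, at −0.28. Of all probe sets 46.7% were above 0 there, and of genes with a mean over 10, 62.7%. The mean of the list was 8.28 and 8.27 on HRFI day 35 replicates 2 and 3, which had the actin gap. Replicates 1 and 4 (8.491 and 8.441) lay within the day 42 range of 8.438 to 8.633. Of 11 genes for the ATP synthase inhibitor and for carriers and channels, 9 were measured, 4 above and 5 below 0 between the lines at day 42 (median −0.11). UCP3 differed by −0.23 and ATPIF1, the inhibitor, by −0.11. Between the ages in HRFI 8 of the 9 were above 0, with SLC25A5, an adenine nucleotide carrier, at 0.31 and VDAC2, an outer membrane channel, at 0.27. Here too HRFI day 35 replicates 2 and 3 had the low means (10.75 and 10.66). Replicates 1 and 4 (10.86 and 10.88) lay within the day 42 range of 10.84 to 10.94. Of 26 listed mitochondrially encoded subunits, 0 were found under the symbols listed, so they were not analysed here.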

How the data were processed

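Duodenal RNA was measured on 16 arrays whose titles gave line and age. Per the labels' protocols, RNA was extracted with Trizol and biotin-labelled cRNA was made from it. The deposited log2 values were made by the authors with Partek 6.5 and RMA, per the submitters' processing notes, and were used as they stand. RMA corrects background, quantile normalizes and summarizes probes, so small general shifts between arrays are removed. The number of arrays limits the precision.

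The 96 control probe sets were left out. Exactly 1 symbol was given to 27184 of 38439 probe sets, several to 161 and none to 11094. Of the members, 66 of 67 matched by Entrez identifier to RefSeq genes, used for names only. Limma 3.58.1 in R 4.3.3 (with data.table, version 1.17.8) fitted 1 mean per group to all arrays with eBayes. Differences were LRFI minus HRFI and day 42 minus day 35, adjusted by Benjamini-Hochberg over all probe sets, and passed at an adjusted p under 0.05; SE is limma's. Groups were called apart when no readings overlapped. The procedure was tested on simulated data.

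Members, lists and tests were chosen with earlier results of these data known. Members were named for the highest and lowest mean in each complex, the smallest p in each complex and the next 4 in 5 comparisons, and, always, CYCS, the SDH genes and paralogs; from other lists, the 2 smallest p in the day 42 line and HRFI age comparisons. Alternatives were a replicate block, another variance model, only the compared arrays, median centring, a filter on dim probe sets, all probe sets of a gene, actin as a covariate, and leaving out arrays or non-subunits.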

Additional observations from a re-analysis of the deposited data

Results flagged for a closer look

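Among 164 groups of 4 arrays examined (35 named genes and the complexes), 5 held an array far from its group by Dixon's criterion, where chance gives about 1 in 20 groups. ATP5I in LRFI at day 35 reached 13.63 on the highest array, with the nearest at 13.59. NDUFA1 in LRFI at day 42 reached 12.01, with the nearest at 11.88. SDHA in HRFI at day 35 reached 11.996, with the nearest at 11.71, and the mean of complex II, which holds SDHA, reached 12.40 there, with the nearest at 12.22. UQCRHL, a hinge-like protein of complex III, reached 13.39 in HRFI at day 42, with the nearest at 13.33.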

How the results depend on the processing

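No member passed the threshold under any alternative run. Without the 5 arrays with actin gaps, the median day 42 minus day 35 difference was −0.0275 in LRFI and 0.0339 averaged over both lines; the cause was not tested. When all probe sets of a member were averaged, SDHD between the lines at day 42 was 0.066. COX6C between the ages in LRFI was then 0.0664, and both were turned in sign. The other probe set that enters there had a mean of 5.01 for SDHD and 6.89 for COX6C. Leaving out 1 array at a time, the median ranged from −0.14 to −0.07 for the lines at day 42, from −0.04 to 0.07 at day 35, from −0.07 to −0.02 for the lines averaged, from −0.18 to −0.07 for age in LRFI, from −0.04 to 0.02 in HRFI, from −0.09 to −0.04 for age averaged and from −0.16 to −0.09 for the interaction. Arrays with the same replicate number did not deviate together: of 24 pairs 6 correlated above 0.1 (−0.33 to 0.35), and 3 correlated best with their own number. With the replicate block the day 42 line median was −0.12 and 0 members passed. The fit to only the compared arrays was not run for averages and the interaction, which use all groups. COX7B, ATP5G2 and ATP5J read below the median of all probe sets; without such dim probe sets the day 42 line median was −0.12, with 55 of 64 members below 0.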
